A study of Homo sapiens with 12 samples.

Results

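Polycomb genes encode the subunits of PRC2, which methylates histone H3 at K27, and of PRC1, which ubiquitinates histone H2A. The set also holds KDM6A and KDM6B, demethylases that remove the H3K27 mark and are not Polycomb subunits. For short, all genes of the set are called Polycomb genes or members here. The set named 34 genes, listed by their function in Polycomb complexes or as demethylases. Each was represented by the array feature of that symbol with the highest mean over all arrays. Features were found for 29 of the 34, among 17687 named genes in all. EED, RNF2, BMI1, CBX8 and PHC2 were matched to no named feature and are not analysed here. Expression was measured in DLD1 and HCT 116, which are established lines from human colorectal cancers, after knockdown of BRG1 (siBRG1) or treatment with a control siRNA (siControl), with 3 single-colour arrays for each line and siRNA, 12 in all. BRG1, the product of SMARCA4, is an ATPase that drives SWI/SNF chromatin remodelling. Whether the 3 arrays stand for separate cultures is not stated in the labels, so p-values describe the spread between arrays, which may be only technical. Neither the siRNA sequence nor the treatment time was given in the sources used here.

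SWI/SNF and Polycomb are known as opposing chromatin regulators: SWI/SNF moves nucleosomes and can displace Polycomb complexes, which keep developmental genes silent. PRC2 has a catalytic subunit, EZH2 or its relative EZH1, held in a core with EED, SUZ12 and RBBP4 or RBBP7, and accessory subunits that divide it into forms guided either by a PCL protein (PHF1, MTF2 or PHF19) or by JARID2 with AEBP2. PRC1 is built on RING1 or RNF2 with a PCGF protein. Canonical PRC1 adds a CBX protein, which reads the methyl mark, and a polyhomeotic protein, and variant PRC1 adds RYBP or YAF2 instead.

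SMARCA4 was low in every siBRG1 array: it lay between 9.59 and 10.31 on the log2 scale in the siControl arrays of both lines and between 6.29 and 7.03 in the siBRG1 arrays. The source names of 4 HCT 116 arrays carry other numbers than their titles, in the line name or in the siRNA name. Arrays were grouped by title. In each of the 4 the SMARCA4 level goes with the title as to siBRG1 or siControl. It cannot check the line, as SMARCA4 did not differ between the siControl arrays of the lines (−0.23, limma adjusted p = 0.491). Nor can it check the number of the siRNA. Array medians lay between 6.36 and 6.50 and correlations within a group between 0.989 and 0.995. Arrays of different lines correlated at 0.937 to 0.948. HCT 116 siControl replicate 1 had the largest deviation from its group mean (root mean square over genes 0.320, against 0.227 to 0.285 on the other arrays). Of 11 markers of colorectal epithelium measured, 6 (EPCAM, KRT8, KRT18, KRT19, CDH1 and CDX2) lay above the array median in all 12 arrays. VIL1, CDX1, LGALS4 and GPA33 lay below it in all. The remaining marker was neither above nor below it in all arrays. Between siControl arrays, 7 of the 11 (63.6%) were called lower in HCT 116 than in DLD1 and none higher, where 14% of all genes were lower. The median of the 11 differences was −0.84 and the lowest was −8.72. Fibroblast, immune and endothelial markers lay below the median in all arrays for 8 of 9, 6 of 9 and 4 of 6 genes, PTPRC and PECAM1 among them. The other fibroblast marker lay above it in all arrays. CD68 of the immune list rose in HCT 116 by 1.29 (limma adjusted p = 0.0036). Its part in the results was not tested.

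In HCT 116, 6 of the 29 Polycomb genes rose after siBRG1 (KDM6B, JARID2, RYBP, PCGF1, KDM6A and CBX6) and 1, PHF19, fell. KDM6B and KDM6A are the H3K27 demethylases, not Polycomb subunits. None of these 7 is a core subunit of PRC2, and of the 5 core genes measured none passed the test. The test was limma's moderated test over all 17687 genes, a gene being called at an adjusted p under 0.05. The 7 called members are 24.1% of those measured, against 6.95% of all genes (2.82% higher and 4.13% lower). Calls were more frequent at higher levels. With only genes above the median level fitted, 16.3% were called, and 7 of the 28 members among them. Over all genes 499 were called higher and 731 lower, and 615 and 565 after median centring of arrays, where the members still counted 6 and 1. The median change of the members was −0.04 and that of all genes −0.01. Their median absolute change was 0.38 against 0.23. The count was 4 without HCT 116 siControl replicate 3, a fit in which 664 genes in all (3.75%) were called.

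In DLD1 none of the 29 genes passed with limma, where 0.198% of all genes did (0.0678% higher and 0.13% lower; 35 genes, and 98 genes, or 0.554%, with the replicate number as a block, again with none of the 29). At an unadjusted p under 0.05, 3 members were higher (CBX6, RING1 and PHC1) and 1 was lower (PCGF3), together 13.8% of the members where 10.5% of all genes reached it, a share near the background. With array weights CBX6 passed. The median change was 0.13, against 0.01 over all genes. In DLD1 the siControl and siBRG1 arrays did not overlap for 7 members, 5 higher and 2 lower, where that held for 15.5% of all genes (8.33% higher and 7.19% lower). In HCT 116 they did not overlap for 11 members, 7 higher and 4 lower, against 24.9% of all genes (11.9% higher and 13% lower).

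**Figure D1:**
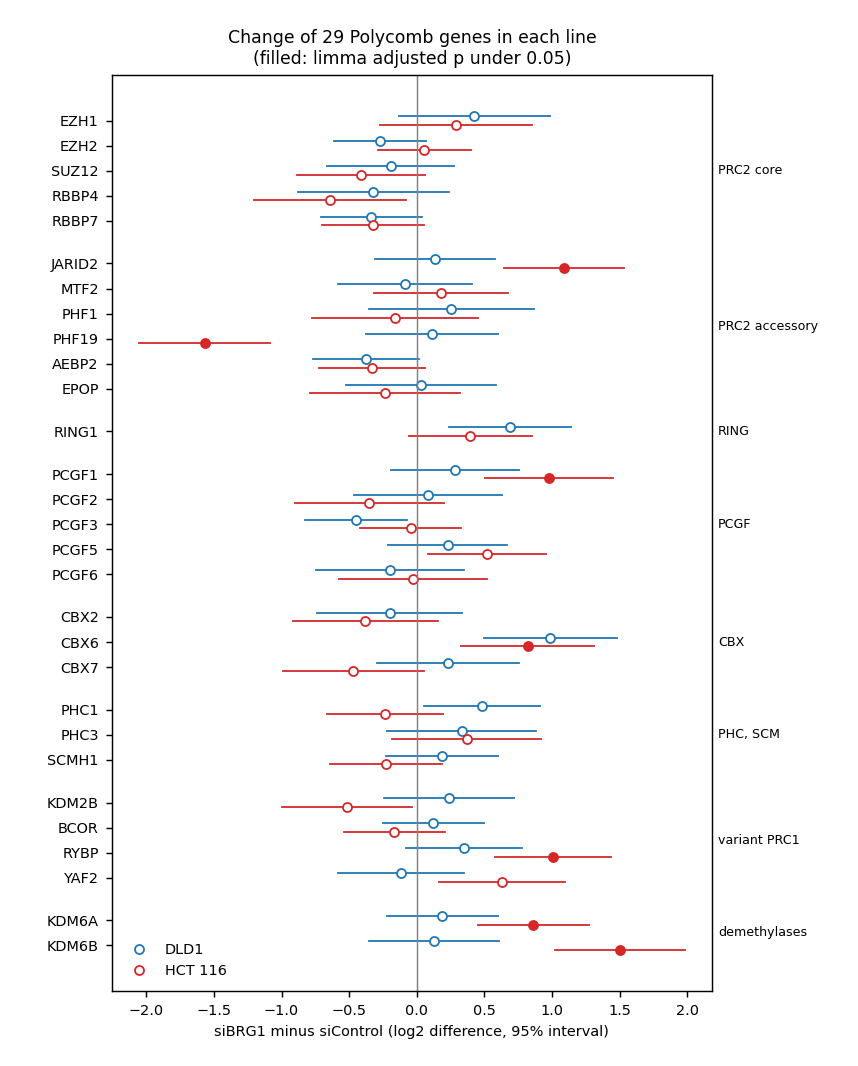
Change after siBRG1 (log2 difference of group means, with its 95% interval from limma) of 29 Polycomb genes, grouped by role, in DLD1 (blue) and HCT 116 (red); filled points passed at an adjusted p under 0.05. Filled points are found in HCT 116 alone: PHF19 at −1.57 on the left, and 6 genes between 0.82 and 1.501 on the right.

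EZH2, the catalytic subunit, was not called in either line. In HCT 116 its siControl arrays read 12.21, 12.36 and 12.36 and the siBRG1 arrays 12.45, 12.32 and 12.33. The groups overlap, the change was 0.05 (SE 0.16), and its 95% interval ran from −0.29 to 0.40 (limma adjusted p = 0.905). DLD1 arrays of EZH2 read 11.55, 11.33 and 11.51 with siControl and 11.11, 11.35 and 11.10 with siBRG1, a change of −0.27 (SE 0.16, limma adjusted p = 0.625) that did not pass. EZH1, the alternative catalytic subunit, had changes of 0.43 in DLD1 and 0.29 in HCT 116, with neither past the threshold.

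SUZ12, which holds the core together, and the histone-binding RBBP4 and RBBP7 had negative differences in both lines, none called. Those of SUZ12 were −0.19 in DLD1 and −0.41 in HCT 116, those of RBBP7 −0.34 and −0.33. RBBP4 read 12.14, 13.01 and 13.23 in HCT 116 siControl arrays and 11.78, 12.31 and 12.37 after siBRG1. Its low siControl reading is replicate 1, and the groups overlap through it. The change of −0.64 (SE 0.26) did not pass (limma adjusted p = 0.174). Without that array it was −0.97 and passed (limma adjusted p = 0.0209). RBBP4 also passed in HCT 116 with the replicate block and with array weights (limma adjusted p = 0.0299 and 0.0372).

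The accessory subunits of PRC2 held both a rise and a fall. PHF19, a PCL protein that guides PRC2 to chromatin, read 9.34, 9.94 and 9.99 in HCT 116 siControl arrays and 7.97, 8.60 and 7.999 after siBRG1. All siBRG1 arrays lay below all siControl arrays. It fell by 1.57 (SE 0.23, limma adjusted p = 9.77e-04), or 2.97-fold on this scale. In DLD1 the arrays read 11.40, 11.33 and 11.14 with siControl and 11.64, 11.37 and 11.19 with siBRG1, overlapping groups. The difference there was 0.11 (SE 0.23, limma adjusted p = 0.946). The change in HCT 116 minus that in DLD1 was −1.68 (SE 0.32, limma adjusted p = 0.039), and PHF19 was the 1 member of 29 that passed this test of the difference, which 0.334% of all genes did (0.158% higher and 0.175% lower, or 28 and 31 genes; 40 and 19 with arrays centred on their medians). This call is near the threshold: the adjusted p was 0.0577 after centring on array medians and 0.0511 with unnamed features included. It passed without HCT 116 siControl replicate 1 or HCT 116 siBRG1 replicate 2 (adjusted p = 0.017 and 0.0309) and was lost without each of the other 10 arrays, with adjusted p up to 0.128.

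JARID2, a substoichiometric subunit that recruits PRC2 and stimulates it, moved the other way. It read 7.76, 7.99 and 8.44 in HCT 116 siControl arrays and 9.36, 9.23 and 8.86 after siBRG1, with no overlap, a rise of 1.09 (SE 0.21, limma adjusted p = 0.00584). The DLD1 arrays lay between 7.49 and 7.91 in both groups, with a change of 0.13. The difference between the lines, 0.96 (SE 0.29), did not pass (limma adjusted p = 0.252). AEBP2, the partner of JARID2 in the same form of PRC2, had −0.37 in DLD1 and −0.33 in HCT 116, neither called. The PCL proteins MTF2 and PHF1 had differences of −0.09 and 0.26 in DLD1 and 0.18 and −0.16 in HCT 116, none called. The 95% interval of PHF1 was wide, −0.36 to 0.87 in DLD1 and −0.77 to 0.45 in HCT 116. EPOP lay between 3.43 and 4.69, below the array median in all 12 arrays, so its level there may be background only.

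The promoters of PHF19, which fell, and of KDM6B, which rose most, are shown because these members moved furthest in opposite directions. Each gene has 2 listed starts, of which 1 is shown, for PHF19 the one with a motif match. The 250 bases before a RefSeq start are written 5′ to 3′ on the gene's strand (RefSeq, GRCh38.p14), chr9:120877189-120877438 on the minus strand for PHF19 and chr17:7833967-7834216 on the plus strand for KDM6B. Capitals mark an E2F motif, searched on both strands as TTTCCCGC, TTTCGCGC, TTTGCCGC or TTTGGCGC.
PHF19: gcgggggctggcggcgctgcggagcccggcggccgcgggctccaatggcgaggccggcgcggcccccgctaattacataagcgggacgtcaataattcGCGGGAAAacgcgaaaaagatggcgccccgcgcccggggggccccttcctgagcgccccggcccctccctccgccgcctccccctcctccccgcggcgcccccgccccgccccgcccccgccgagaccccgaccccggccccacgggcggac
KDM6B: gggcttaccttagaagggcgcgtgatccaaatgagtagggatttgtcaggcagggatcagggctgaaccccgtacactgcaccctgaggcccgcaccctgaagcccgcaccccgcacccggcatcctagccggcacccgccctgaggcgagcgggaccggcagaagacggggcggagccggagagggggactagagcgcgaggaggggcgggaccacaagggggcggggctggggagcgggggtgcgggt
The PHF19 match begins 152 bases before the start and reads TTTCCCGC on the opposite strand. The other listed PHF19 start has none, and neither listed KDM6B start has one. Of 41 promoters listed for 27 of the members, 4 held such a match (1 each of PHF19, EZH1, SUZ12 and AEBP2), against 2.79% of all 35116 promoters. The CHR motif TTTGAA, searched on both strands and contained in none of the E2F letters, was found in 3 of the 41, against 13.3% of all. PHF19 is the only called member with an E2F match and none of the 7 has a CHR match in these windows. A match describes these letters and shows no binding. EPOP and CBX2 are not among the 27.

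RING1, the ubiquitin ligase subunit measured here, read 8.64, 8.28 and 8.67 in DLD1 siControl arrays and 8.92, 9.31 and 9.42 after siBRG1, without overlap. That change of 0.69 (SE 0.21) did not pass (limma adjusted p = 0.221), and the change of 0.40 in HCT 116 did not either (limma adjusted p = 0.321). Averaged over the lines RING1 rose by 0.54 (SE 0.15, limma adjusted p = 0.0362), a call that held in 3 of 12 fits without 1 array and lost significance without any of the DLD1 siControl arrays, DLD1 siBRG1 replicates 2 or 3, HCT 116 siControl replicates 1 or 2, or HCT 116 siBRG1 replicates 2 or 3.

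Of the PCGF proteins, which set the type of PRC1, PCGF1 rose in HCT 116. PCGF1 belongs to the variant complex with KDM2B and BCOR. It read 10.49, 9.93 and 9.97 with siControl and 11.21, 11.10 and 11.00 with siBRG1, without overlap, a rise of 0.97 (SE 0.22, limma adjusted p = 0.0162). The DLD1 change was 0.28 (limma adjusted p = 0.758), with overlapping groups, and the difference between lines of 0.69 did not pass (limma adjusted p = 0.528). The HCT 116 call was lost without siControl replicate 2, siControl replicate 3 or siBRG1 replicate 2, with adjusted p up to 0.076. PCGF5, of another variant complex, read 8.95, 9.62 and 9.60 with siControl in HCT 116 and 9.74, 9.97 and 10.01 with siBRG1. Those groups do not overlap, yet the change of 0.52 did not pass (limma adjusted p = 0.159). PCGF2 of canonical PRC1, PCGF3 and PCGF6 had changes between −0.45 and 0.08, none called.

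**Figure D2:**
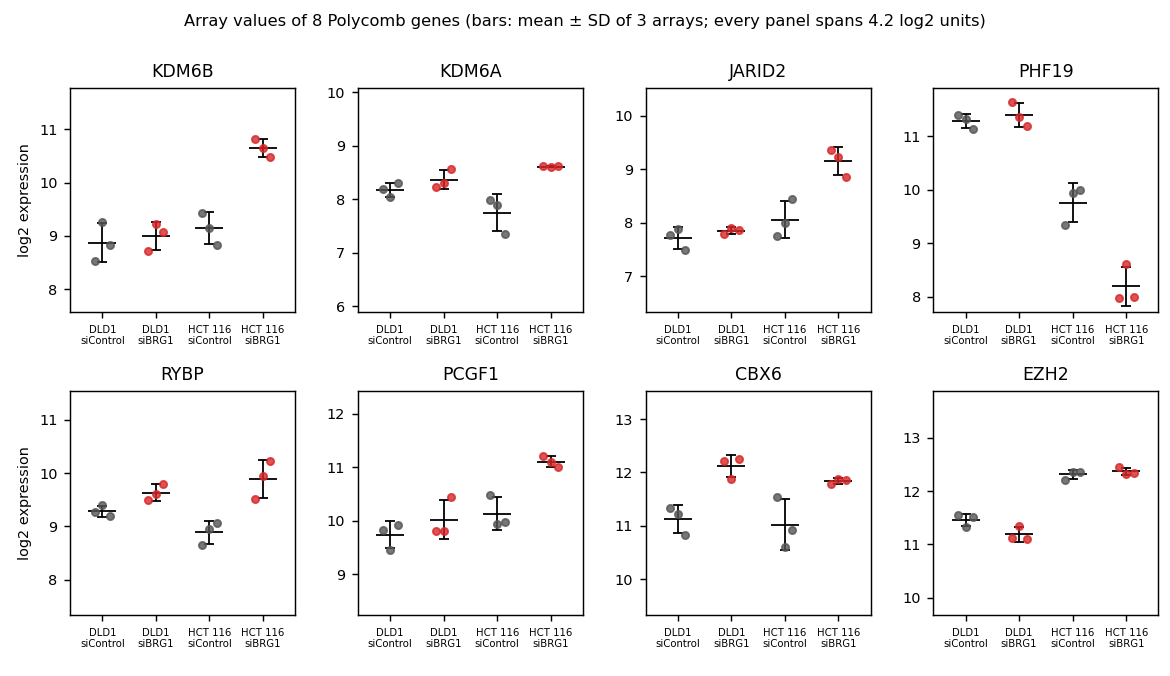
Log2 expression of 8 Polycomb genes in each of the 12 arrays (points), with the mean and SD of the 3 arrays of a group (bars); grey points are siControl, red points siBRG1, and every panel spans the same number of log2 units. The HCT 116 siBRG1 arrays lie above the HCT 116 siControl arrays for KDM6B, KDM6A, JARID2, RYBP, PCGF1 and CBX6, below them for PHF19, and overlap them for EZH2.

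Among the CBX readers of canonical PRC1, CBX6 was high after siBRG1 in both lines. In DLD1 it read 11.34, 11.22 and 10.84 with siControl and 12.22, 11.88 and 12.26 with siBRG1, and in HCT 116 it read 11.54, 10.60 and 10.92 and then 11.78, 11.88 and 11.85. Neither line has overlapping groups. The change was 0.99 (SE 0.23) in DLD1, the largest of the 29 members there, and did not pass (limma adjusted p = 0.108; 0.0805 with the replicate block; 0.0443 with array weights). In HCT 116 it was 0.82 (SE 0.23, limma adjusted p = 0.0451), a call at the edge of the threshold that was lost in 9 of 12 fits without 1 array (adjusted p up to 0.191) and with HCT 116 fitted alone (0.0898). Without HCT 116 siControl replicate 1 or DLD1 siControl replicate 3 or siBRG1 replicate 2 it held. The average over both lines, 0.90 (SE 0.16, limma adjusted p = 0.00403), passed without any 1 of the 12 arrays. The lines differed by −0.17, with a 95% interval from −0.86 to 0.53. CBX2 and CBX7 had changes of −0.20 and 0.23 in DLD1 and −0.38 and −0.47 in HCT 116, with none called. CBX7 spread most in HCT 116 siBRG1 arrays (6.17, 6.63 and 7.39).

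The polyhomeotic PHC1 and PHC3, which let PRC1 polymerise, and SCMH1, a related SAM domain protein, had no call. PHC1 had 0.48 in DLD1 and −0.23 in HCT 116, PHC3 0.33 and 0.37, and SCMH1 0.19 and −0.23. The difference between lines of PHC1, −0.72 (SE 0.28), did not pass (limma adjusted p = 0.436).

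RYBP, which binds RING1 or RNF2 in variant PRC1 and is itself a ubiquitin-binding protein, rose in HCT 116. It read 8.66, 8.94 and 9.06 with siControl and 9.52, 9.94 and 10.22 with siBRG1, a rise of 1.005 (SE 0.20, limma adjusted p = 0.0079) without overlap. The DLD1 arrays read 9.26, 9.40 and 9.19 and then 9.50, 9.60 and 9.80, again without overlap, but the change of 0.35 (SE 0.20) did not pass (limma adjusted p = 0.606). Its paralog YAF2 had 0.63 in HCT 116 (SE 0.22, limma adjusted p = 0.10) and −0.12 in DLD1. KDM2B, a CpG-binding subunit that brings PCGF1 complexes to CpG islands, had −0.52 in HCT 116 (limma adjusted p = 0.205) and 0.24 in DLD1, and BCOR, its corepressor partner, −0.17 and 0.12. Of PCGF1 and its variant partners, PCGF1 and RYBP passed in HCT 116, and KDM2B, BCOR and YAF2 did not.

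Both H3K27 demethylases rose in HCT 116. KDM6B (JMJD3) read 9.43, 9.15 and 8.84 with siControl and 10.81, 10.65 and 10.47 with siBRG1, a rise of 1.501 (SE 0.22, limma adjusted p = 0.00117), or 2.83-fold. KDM6A (UTX) read 7.99, 7.90 and 7.35 and then 8.61, 8.60 and 8.62, a rise of 0.86 (SE 0.19, limma adjusted p = 0.0148). For both, every siBRG1 array lay above every siControl array. The KDM6A call was lost without HCT 116 siControl replicate 3 or HCT 116 siBRG1 replicate 3, with adjusted p up to 0.0696. In DLD1, KDM6B lay between 8.54 and 9.26 with siControl and between 8.71 and 9.22 with siBRG1, a change of 0.13, and KDM6A had 0.19. Neither difference between the lines passed (1.37 for KDM6B, limma adjusted p = 0.0991, and 0.67 for KDM6A, 0.455). With the replicate block that of KDM6B passed (limma adjusted p = 0.0268).

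On average over both lines 8 of the 29 members (27.6%) were called, against 8.68% of all genes (4.01% higher and 4.68% lower): the 7 called in HCT 116 and RING1. With only genes above the median level fitted, 20.6% were called, and 8 of the 28 members among them. A call on average does not show a change in both lines, and none of the 8 was called in DLD1. PHF19 was lower on average (−0.73) with a DLD1 change of 0.11. The DLD1 changes were 0.13 for KDM6B, 0.13 for JARID2, 0.19 for KDM6A and 0.28 for PCGF1. Those of RYBP, RING1 and CBX6 were 0.35, 0.69 and 0.99. The average uses the same arrays as the comparisons within the lines and is not separate evidence. Its count was 5 without DLD1 siControl replicate 2, where 6.92% of all genes passed, and 5 without DLD1 siBRG1 replicate 3, where 4.51% did. The sign of the change was the same in both lines for 17 of the 29 members (58.6%), as it was for 60.9% of all genes.

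With the control siRNA the lines differed in part of the set. HCT 116 siControl arrays were higher than DLD1 siControl arrays for 6 members and lower for 4, together 34.5% of the members where 27.6% of all genes passed (13.6% higher and 14% lower), a share near the background. With only genes above the median level fitted, 42.8% passed, and 10 of the 28 members among them. MTF2 was higher in HCT 116 by 1.49 (SE 0.23, limma adjusted p = 1.48e-04): its siControl arrays read 10.75, 11.14 and 10.82 in DLD1 and 12.56, 12.29 and 12.32 in HCT 116. PHF19, the other PCL protein with a large difference, was lower by 1.53 (SE 0.23, limma adjusted p = 9.9e-05). PCGF6 was higher by 1.25, RBBP4 by 0.89, EZH2 by 0.85, PHC1 by 0.65 and AEBP2 by 0.56. KDM2B was lower by 1.08, PCGF5 by 1.03 and YAF2 by 0.735. KDM2B, YAF2, RYBP and BCOR, the 4 genes listed here as variant PRC1, had lower means in HCT 116, and 2 of them passed. The difference of BCOR was only −0.10. PCGF proteins went both ways: PCGF5 was lower, PCGF6 was higher, and PCGF1, the partner of KDM2B and BCOR, was higher by 0.39 without a call. The siControl arrays of the lines did not overlap for 15 members, 9 higher and 6 lower in HCT 116. The 10 called members are among them. Over all genes 40% did not overlap (20.3% higher and 19.7% lower). Without 1 array the count of calls lay between 7 and 10; RBBP4, PHC1, AEBP2 and YAF2 were each lost in some of those fits.

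**Figure D3:**
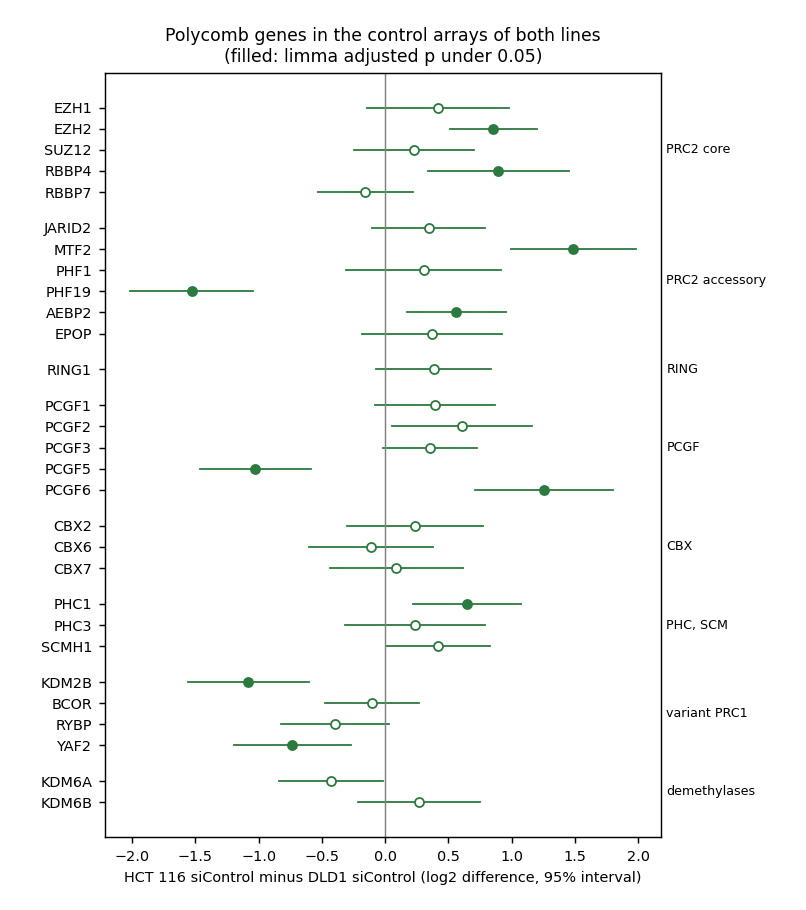
Difference between HCT 116 and DLD1 siControl arrays (log2, with 95% interval) for 29 Polycomb genes by role; filled points passed at a limma adjusted p under 0.05. MTF2 and PHF19, both PCL proteins, stand at opposite ends, at 1.49 and −1.53.

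PHF19, already lower there than in DLD1, fell further, from a mean of 9.76 ± 0.36 to 8.19 ± 0.36 (SD, n = 3 arrays each), against 11.29 ± 0.13 and 11.40 ± 0.23 in DLD1. YAF2 and RYBP had lower HCT 116 than DLD1 siControl means (9.44 against 10.17, and 8.89 against 9.29), and HCT 116 siBRG1 means of 10.07 and 9.89. KDM2B and BCOR also had lower siControl means in HCT 116 (8.18 against 9.26, and 9.43 against 9.53). Their HCT 116 siBRG1 means were 7.67 and 9.26. The HCT 116 siControl arrays enter both the difference between lines and the siBRG1 change, so these are not independent.

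Lists of related genes were read in the same fit, in which 6.95% of all genes were called in HCT 116. With only genes above the median level fitted, 16.3% were. Of 25 further PRC1 partners measured, 2 rose in HCT 116 (FBRS by 1.03 and SFMBT1 by 0.67) and 2 fell (L3MBTL2 by 0.95 and WDR5 by 0.67); L3MBTL2 and WDR5 belong to PCGF6 complexes, FBRS to PCGF3 and PCGF5 complexes. Of 9 further genes listed as PRC2 partners, only NIPBL was called, rising by 0.85. It is a cohesin loader gene and encodes no PRC2 subunit. Of 15 genes of H2A ubiquitin removal, USP22, a subunit of the SAGA coactivator, fell by 0.78. Of 13 writers of opposing marks, the H3K27 acetyltransferase gene CREBBP rose by 1.08 and ASH2L, a core subunit of the H3K4 methyltransferases, fell by 0.96. The called genes make up 16% of the PRC1 partners, 11.1% of the listed PRC2 partners (NIPBL alone), 6.67% of the H2A ubiquitin list and 15.4% of the opposing writers. These are counts of 1 to 4 genes a list. In DLD1 none of the genes in these lists passed with limma; the largest differences were 1.25 for SCML2, 0.38 for NIPBL, −0.79 for FOXK1 and 0.35 for CREBBP.

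Developmental genes that Polycomb silences in stem cells were mostly at low levels. Of 60 measured, 39 lay below the array median in all 12 arrays, where values may be background. In HCT 116 the median change was −0.01 and 1 gene passed, GATA2, a haematopoietic transcription factor, which fell from 7.51 ± 0.46 to 5.96 ± 0.24 (SD, n = 3 each; limma adjusted p = 9.37e-04). The lower mean is under every array median. GATA2 alone is 1.67% of the list, where 6.95% of all genes were called. At an unadjusted limma p under 0.05, 1 of the 60 was higher and 7 were lower in HCT 116. Of all genes 9.14% were higher and 11.3% lower there. In DLD1 no gene of the list passed with limma, the median was −0.01, and ZIC2 had the largest change, 0.60. There 0 were higher and 1 lower at an unadjusted limma p under 0.05, as 5.77% and 4.75% of all genes were.

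Cell cycle genes moved with the HCT 116 comparison. Of 20 proliferation genes 7 fell and none rose there (median −0.58), where 4.13% of all genes fell and 2.82% rose. Of these, MCM5 fell by 1.37, MCM3 fell by 1.19, MCM2 fell by 1.16 and MCM6 fell by 1.02, all subunits of the replicative helicase. The mean level of the 20 genes lay between 12.80 and 12.83 in HCT 116 siControl arrays and between 12.16 and 12.34 in siBRG1 arrays. In DLD1 none of the 20 passed with limma, 8 of them (40%) were lower at an unadjusted p under 0.05, as 4.75% of all genes were, and the median was −0.27, with MCM3 at −0.73. The DLD1 siControl arrays had means of the 20 genes between 12.685 and 12.798, and the siBRG1 arrays 12.553, 12.546 and 12.124. DLD1 siBRG1 replicate 3 was the lowest, and the difference of the means was −0.32 with it and −0.18 without it. The part of cell cycle state in the Polycomb changes was not tested.

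**Figure D4:**
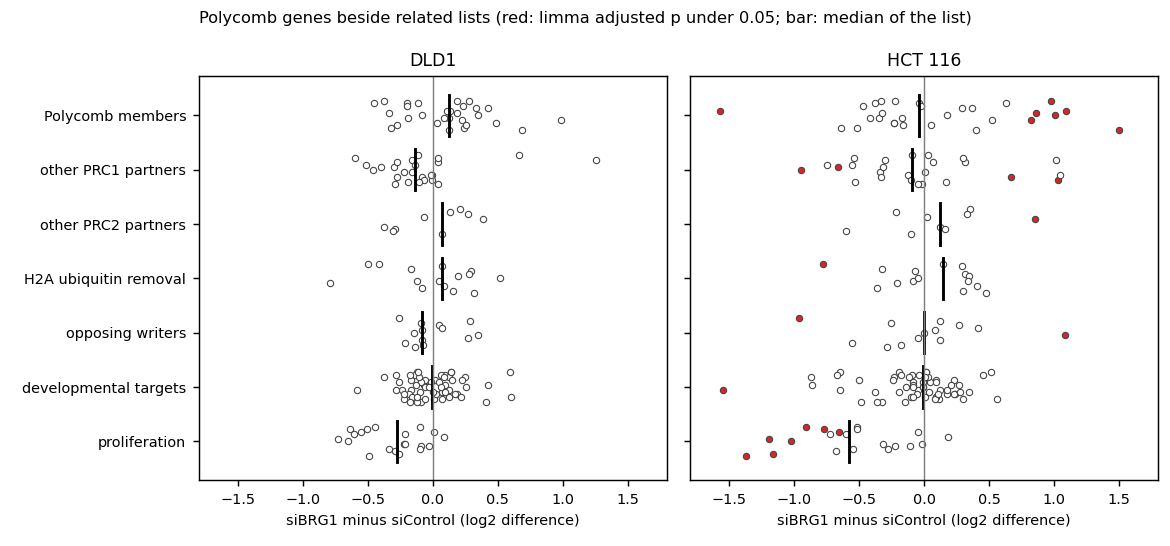
Change after siBRG1 (log2 difference) of the Polycomb genes and 6 related lists in DLD1 (left) and HCT 116 (right); each point is a gene, red points passed at a limma adjusted p under 0.05, and bars mark list medians. The proliferation list has the lowest median in HCT 116, −0.58, and the Polycomb genes spread to both sides of 0.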

How the data were processed

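Biotin-labelled cDNA from total RNA was read on 1 array per sample. The authors deposited log2 values; RMA and Affymetrix Power Tools are named in the submitters' processing notes, with no version or build in the sources used here. From 94 to 112 values per array lie above 16, so the scale holds a step that is not named, and every log2 difference is on that deposited scale. Of 21448 features, 17709 had a gene symbol, checked against RefSeq through Entrez IDs, which gave 17687 genes, the brightest feature standing for a gene. Detection calls and scan dates were not used here, so values below the array median may be background, and batches were not tested.

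Group means of the 12 arrays were fitted with limma 3.58.1 in R 4.3.3 (lmFit, eBayes), with 5 contrasts and Benjamini-Hochberg adjustment over all genes; intervals are 95%. The steps were tested on simulated data. The members and lists were chosen with earlier results of these data known. All members are named; from the other lists, up to 4 called genes with the largest change per line, or the 1 with the largest change where none was called. CD68, the epithelial markers, PTPRC and PECAM1 were named after their values were seen. The replicate numbers in the titles pair the DLD1 arrays: for each number, the siControl and siBRG1 deviations from their group means correlated, at 0.485, 0.459 and 0.291, a pairing seen in the data and not stated in the labels. In HCT 116 these correlations were weaker, at 0.299, 0.149 and 0.028, and whether the numbers pair the arrays is unclear. Alternatives were the block, each line alone, other normalization, filters, priors, weights and thresholds, and leaving out each array.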

Additional observations from a re-analysis of the deposited data

Results flagged for a closer look

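The change of PHF19 in HCT 116 minus its change in DLD1, −1.68 (log2, SE 0.32, limma adjusted p = 0.039), passed limma's interaction test at the threshold used. The call was lost without 10 of the 12 arrays, each left out in turn. PHF19 changed by −1.57 in HCT 116, lower in 3 of 3 siBRG1 arrays than in any siControl array, and by 0.11 in DLD1. Groups of 3 arrays are too small to look for single arrays far from their group.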

How the results depend on the processing

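No member called in any comparison changed direction under any alternative. The HCT 116 count of 7 became 4 at an adjusted p under 0.01 (JARID2, KDM6B, PHF19 and RYBP) and lay between 4 and 8 without 1 array; these 4 genes passed in all 12 such fits. At an adjusted p under 0.01 the average of the lines had 3 members, the control lines 6 and the difference between lines 0. Without 1 array the average had 5 to 8 members, the control lines 7 to 10, the difference 0 to 1 and DLD1 0 to 0. Array weights gave 1 member in DLD1 (CBX6), 8 in HCT 116 (RBBP4 added) and 10 on average (RBBP4 and RBBP7 added). For the difference they gave 2 (KDM6B added). The difference had 0 after centring on array medians and 0 with unnamed features in the adjustment. Pairing by replicate number was seen in the DLD1 arrays and was unclear in HCT 116. The replicate block gave 0 members in DLD1, 8 in HCT 116 and 9 on average (RBBP4 added to both). For the difference it gave 2 (KDM6B added). It changed no other call of a member. In HCT 116 the same-numbered correlations were 0.299, 0.149 and 0.028, and siControl replicate 3 correlated better with another number. Over all genes the block gave 98 calls in DLD1 (35 without), 2123 in HCT 116 (1230), 2476 on average (1536) and 102 for the difference (59); array weights gave 128, 2035, 2306 and 162, and an adjusted p under 0.01 gave 11, 418, 494 and 16. DLD1 had 4 calls fitted alone, 63 with a trended prior and 7 to 66 without 1 array; HCT 116 had 618 to 1271. The cause of these shifts was not tested. A block within a line cannot pair arrays of different lines; a block shared by both lines, chosen after seeing the data, gave 10 members for the control lines. Filters on level removed EPOP. The number of arrays limits all of these values.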
